A study of Mus musculus with 8 samples.

Results

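Solute carriers are the membrane proteins that move sugars, amino acids, vitamins, ions and metabolites across the plasma membrane and the membranes of organelles. They were taken here as the protein-coding genes of the deposited table whose symbol begins with SLC or SLCO followed by a family number, a letter and a member number, and whose mean FPKM over the 8 libraries was at least 1. FPKM is the fragment count of a gene corrected for its length and for the depth of the library. The members were chosen by this mean level over both groups together, so their levels are given as a description, without a test. Of 385 protein-coding genes with such a symbol, 167 reached that level, among 11536 genes at the level and 58304 genes kept in all. Of the remaining 218 carriers, 174 had a mean FPKM under 0.1 and 71 of these had 0 counts in every library. The level was reached in both groups by 164 of the 167, in the PBS group alone by 1 and in the rFGF4 group alone by 2. Of the carriers left out, 5 reached it in the PBS group alone and 0 in the rFGF4 group alone. Those 5 are not among the 167.

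The study compared wounds given recombinant fibroblast growth factor 4 (rFGF4) with wounds given PBS, a salt buffer that served as the control. The labels describe skin of C57BL/6 mice aged 6 to 8 weeks, taken from the 2 mm zone round the wound after 6 days, in 4 libraries with PBS and 4 with rFGF4. No genetic change is labelled in either group. The table does not match those labels, because its 58304 gene identifiers are all from the human Ensembl set and 0 from that of the mouse. The table's columns are named C and FGF4, each with a replicate number. C was taken as the PBS control and FGF4 as rFGF4 by name, the columns may belong to another experiment than the labels describe, and nothing below is attributed to mouse wounds. No source used here says what cells the values come from or whether replicates came from separate cultures, animals or donors, so p-values measure only the spread between these libraries, which may be technical. The libraries held 62044121 to 73680756 counts each, of which 1.36% to 1.46% fell on the 167 genes. The lowest count of any of them in any library was 174. The values carried the keratins of epithelial cells. All 5 basal keratinocyte markers checked and all 4 simple epithelial keratins reached a mean FPKM of 1, against 0 of 5 fibroblast, 0 of 4 T cell and 0 of 4 neutrophil markers, 1 of 5 for endothelium (CDH5) and 1 of 5 for macrophages (CD68, also a general lysosomal protein). Of the differentiated epidermis list 3 of 5 did so, and of the erythrocyte, melanocyte, adipocyte and skeletal muscle lists 0 of 4 each. The summed fibroblast markers were at 0.774 to 0.817 FPKM in the PBS and 0.411 to 0.479 FPKM in the rFGF4 libraries. The 4 neutrophil markers were listed at 0 in every library. The summed level of the basal markers was 2010 to 2292 FPKM in the PBS and 1843 to 1983 FPKM in the rFGF4 libraries, and neither of these 2 pairs of ranges overlapped. Of the basal markers, mean KRT5 (987 FPKM with PBS and 834 FPKM with rFGF4) and KRT14 (1093 and 958 FPKM) were lower with rFGF4. Mean TP63 (9.55 and 9.61 FPKM), ITGA6 (48.3 and 50.8 FPKM) and COL17A1 (75.8 and 80.2 FPKM) were not lower. The part of these marker differences in the results below was not tested. Values are from bulk RNA, in which fewer cells of a type and less RNA per cell cannot be told apart.

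Carriers work in a few modes. Uniporters such as the glucose transporters let a substrate run down its gradient, symporters pull it in with sodium or protons, and exchangers trade it for another solute. Growing epithelial cells use large neutral amino acid exchange, glutamine uptake, glucose uptake and lactate transport to feed synthesis, while zinc, iron and vitamin carriers supply cofactors. A large family sits in the inner mitochondrial membrane, where it moves nucleotides, phosphate and metabolic acids, and another supplies nucleotide sugars to the endoplasmic reticulum and Golgi.

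The levels of the 167 genes were uneven. Of them, 84 had a mean of at least 5 FPKM and 4 a mean of at least 100 FPKM, and those 4 held 49.5% to 55.2% of the summed FPKM of all 167 in a library. SLC25A5, which exchanges ADP for ATP across the inner mitochondrial membrane, had the highest level at 748 ± 34.4 FPKM in the PBS and 669.7 ± 30.8 FPKM in the rFGF4 libraries (mean ± SD, n = 4 each, as for all such values below). SLC7A5, the large neutral amino acid exchanger LAT1, followed at 658 ± 10.5 FPKM in the PBS and 563 ± 16.6 FPKM in the rFGF4 libraries, and the ranges of these 2 genes over the 8 libraries overlapped. SLC3A2, the heavy chain that carries SLC7A5 to the cell surface, stood at 133 ± 5.29 FPKM in the PBS and 110.3 ± 4.89 FPKM in the rFGF4 libraries, below every library of SLC7A5. The ratio of SLC7A5 to SLC3A2 on the FPKM scale was 4.68 to 5.32 in the PBS and 4.60 to 5.38 in the rFGF4 libraries, so the groups overlapped in it. The glutamine and neutral amino acid exchanger SLC1A5 had a mean of 77.0 FPKM, the mitochondrial phosphate carrier SLC25A3 62.0 FPKM and SLC39A7, which releases zinc from the endoplasmic reticulum, 58.1 FPKM. Next came the mitochondrial citrate carrier SLC25A1 at 46.5 FPKM, the cationic amino acid transporter SLC7A1 at 34.1 FPKM and the sodium-coupled neutral amino acid transporter SLC38A2 at 33.3 FPKM. Among the 18 genes with the highest means, from SLC3A2 down, the library range of each gene overlapped that of its next neighbour, so the order among neighbours is not fixed by these libraries. Just inside the level of 1 FPKM were SLC45A4 at 1.03 FPKM and SLC25A27 at 1.02 FPKM, and just outside it SLC22A18 at 0.992 FPKM and SLC4A3 at 0.964 FPKM. The lactate exporter SLC16A3 was below it at 0.767 FPKM.

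**Figure D1:**
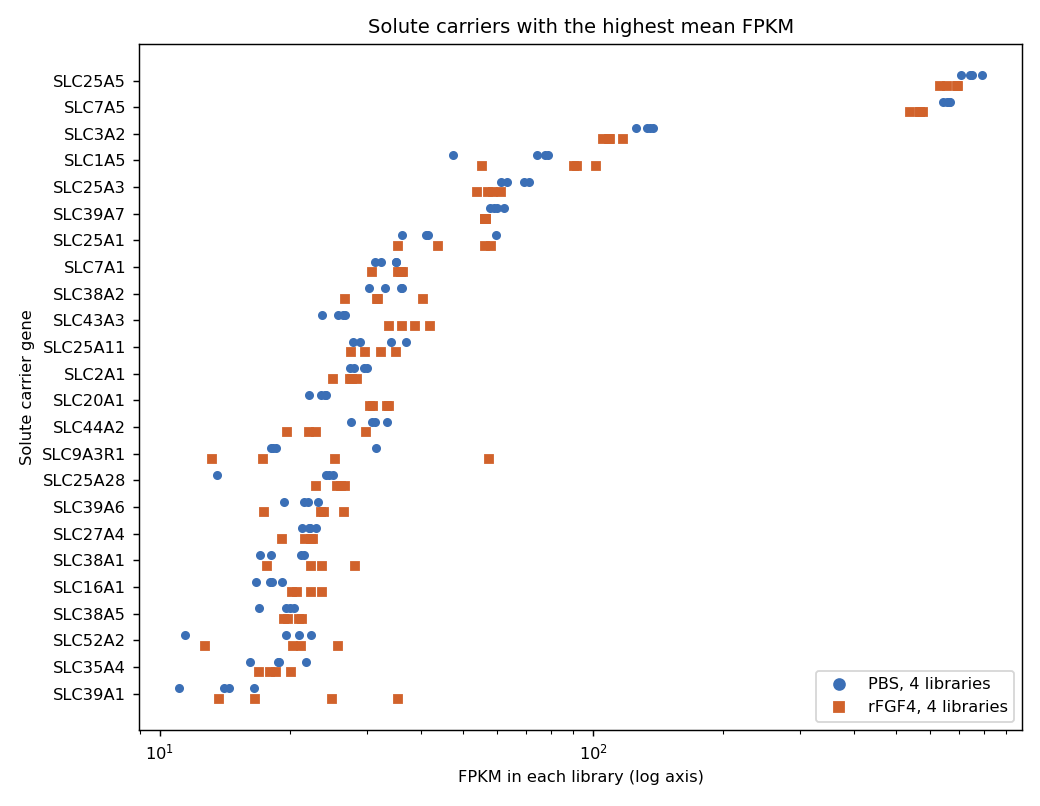
FPKM of the solute carriers with the highest mean FPKM (log axis), 1 point per library, with PBS libraries as circles and rFGF4 libraries as squares. SLC25A5 and SLC7A5 lie above all others, and the PBS points of SLC7A5 and SLC3A2 lie to the right of the rFGF4 points.

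More carriers were called higher than lower in the libraries labelled rFGF4, and most changes were under 1 on the log2 scale. Of the 167 genes, 17 rose and 10 fell with edgeR's quasi-likelihood test at an adjusted p under 0.05, fitted and adjusted over all 11536 genes, and 140 did not pass. That is 16.2% of the carriers, where 10.0% of all genes tested passed. The share that rose was 10.2% against 5.49% of all genes, and the share that fell was 5.99% against 4.54%. The median log2 fold change (rFGF4 over PBS) was 0.0164 for the carriers and 0.00153 for all genes tested, and the median size of change was 0.16 and 0.15. Without regard to the threshold the directions were nearly even, with 86 carriers above 0 and 81 below. At an unadjusted p under 0.05 by edgeR, 28 carriers were higher and 27 lower, against 1563 and 1333 of all genes tested. In 41 carriers (24.6%) the values of the PBS and rFGF4 libraries did not overlap, where 19.3% of all genes had such groups, and all 27 carriers past the threshold were among these 41. Of the 41, 24 were higher (14.4% of carriers, against 10.1% of all genes) and 17 lower (10.2% against 9.26%). A change of at least 0.5 in size with an adjusted p under 0.05 was seen in 12 carriers (7.19%) and in 4.48% of all genes. The count of 17 that rose was 8 without PBS replicate 2. The count of 10 that fell was 5, 4, 6 and 5 without PBS replicate 1, 2, 3 and 4, and 4 and 6 without rFGF4 replicate 1 and 3, and it was 16 with DESeq2. The count that rose was 21 with DESeq2, which called 982 higher and 846 lower of all 11536 genes tested. Over all genes tested, edgeR called 1157 in either direction with all 8 libraries. It called 732, 601, 768 and 802 without PBS replicate 1, 2, 3 and 4, and 715 and 675 without rFGF4 replicate 1 and 3.

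**Figure D2:**
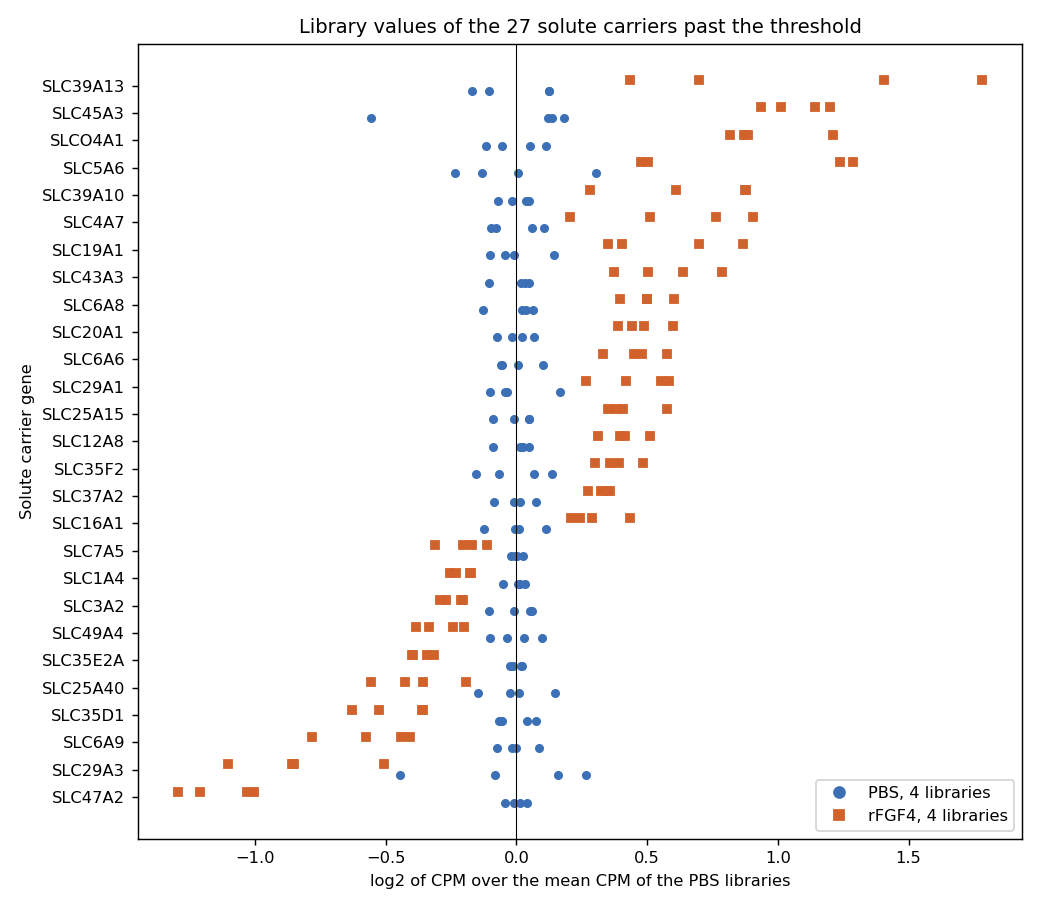
Library values of the 27 solute carriers past the threshold, as the log2 of CPM over the mean CPM of the PBS libraries, with 4 PBS libraries as circles and 4 rFGF4 libraries as squares per gene. The groups do not overlap in any of the 27 genes, and SLC39A13 and SLC5A6 show the widest spread among their rFGF4 libraries.

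The called members are given here by substrate class, as in the plot of changes by class. Classes came from gene family names and textbook substrates, so a member may carry a substrate other than that of its class. The class of vitamin, choline, nucleoside and osmolyte carriers had 6 members higher and 1 lower of 20, and the amino acid and peptide class had 0 higher and 4 lower of 20. Sugar carriers had 2 higher of 10, and carriers of sodium, protons, bicarbonate and chloride 2 higher of 15, with 0 lower in both. For the counts of 0 with edgeR, unadjusted p-values under 0.05 were seen for 1 higher amino acid carrier, 0 lower sugar carriers and 3 lower carriers of the sodium, proton, bicarbonate and chloride class, and DESeq2 called 0, 0 and 1. In the class of metal ions 2 were higher and 1 lower of 21, where DESeq2 called 2 higher and 4 lower. In the class of lipids, bile acids and organic ions 1 of 15 was higher and 1 lower. Of 37 mitochondrial carriers 1 was higher and 1 lower, where DESeq2 called 3 higher and 1 lower. The SLC35 family, with the nucleotide sugar carriers, had 1 higher and 2 lower of 19, the phosphate class 1 higher of 2 and the monocarboxylate class 1 higher of 3. Class medians ran from −0.09 for amino acids and peptides to 0.24 for phosphate. Of all 11536 genes tested, edgeR called 1157 and DESeq2 1828. The difference between classes was not tested. Below, carriers that passed, the highest of each class and a fixed set of well-known ones are named by a rule, and the other 38 carriers named were chosen after their values were seen. To pass means with edgeR on all 8 libraries unless another tool is named. Beside a call, the left-out libraries that end it are named, and the other settings that end it are given with the grid of calls by setting.

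**Figure D3:**
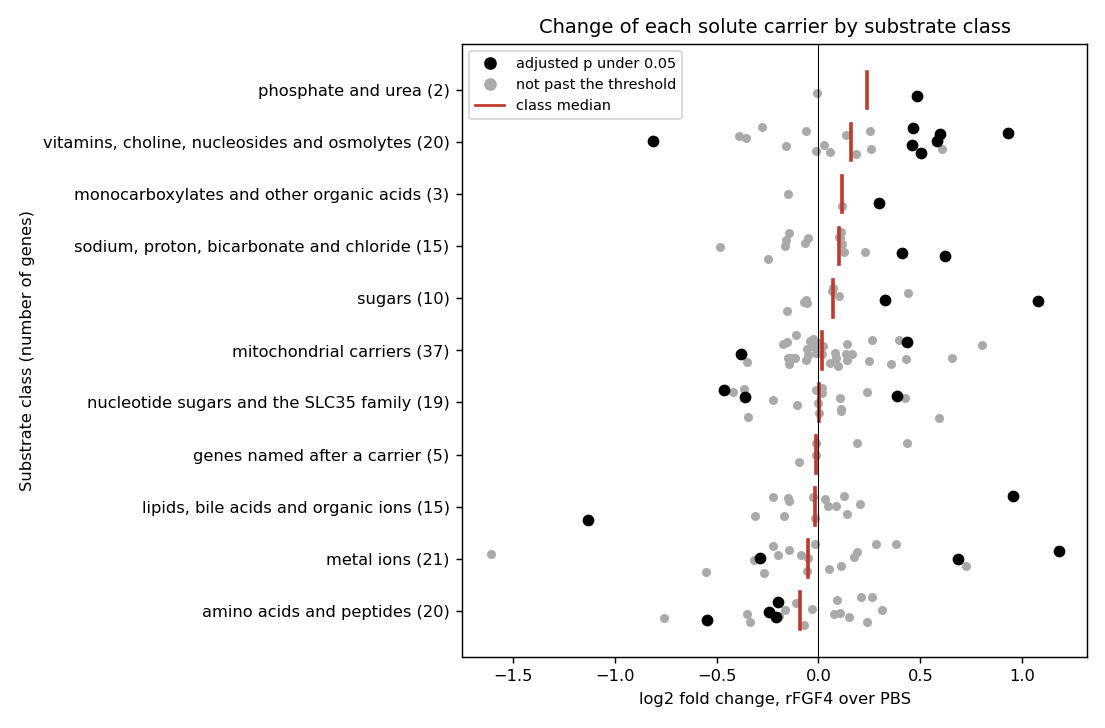
The log2 fold change (rFGF4 over PBS) of each of the 167 genes by substrate class, with black points for an adjusted p under 0.05, grey points for the others and a bar at the class median. Vertical scatter within a class only separates points. The 4 black points of the amino acid class lie below 0 and 6 of the 7 black points of the vitamin, choline, nucleoside and osmolyte class lie above it.

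The amino acid exchanger LAT1 and its heavy chain were both lower in the libraries labelled rFGF4. SLC7A5 (ENSG00000103257, chr16:87830023-87869507 on the minus strand, as the table gives it, with no build named) stood at 3753, 3687, 3734 and 3806 CPM with PBS and 3253, 3019, 3327 and 3464 CPM with rFGF4. CPM is the usual library-scaled count, here over the tested genes and after TMM scaling, and values are given in the order of replicates 1 to 4. Every rFGF4 library lay below every PBS library. SLC7A5 fell by 0.20 on the log2 scale (SE 0.05, adjusted p = 0.0477 by edgeR), or to 0.872 of the PBS level. SLC3A2 (ENSG00000168003, chr11:62856102-62888875 on the plus strand) stood at 816, 857, 764 and 852 CPM with PBS and 682, 714, 672 and 711 CPM with rFGF4. Those groups did not overlap either, and SLC3A2 fell by 0.24 on the log2 scale (SE 0.05, adjusted p = 0.026 by edgeR). SLC1A4, an exchanger of alanine, serine and cysteine, stood at 49.7, 47.8, 50.0 and 50.6 CPM with PBS and 43.9, 42.2, 43.7 and 41.6 CPM with rFGF4, and it fell by 0.21 on the log2 scale (SE 0.05, adjusted p = 0.0377 by edgeR). Its values were close together within each group.

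Among the 4 amino acid carriers that fell, the largest change was in the glycine transporter SLC6A9 (ENSG00000196517, chr1:43991500-44031462 on the minus strand). It stood at 45.7, 43.0, 40.9 and 42.5 CPM with PBS and 28.9, 25.0, 32.5 and 31.7 CPM with rFGF4, without overlap. SLC6A9 fell by 0.54 on the log2 scale (SE 0.09, adjusted p = 0.0083 by edgeR). Its span overlaps that of CCDC24 on the opposite strand, which had a log2 fold change of −0.58 (SE 0.14, adjusted p = 0.0377 by edgeR), and no source used here says whether reads were counted by strand. The call for SLC6A9 held with any 1 library left out. The others in the class did not all hold: the call ended without PBS library 1, 2, 3 or 4, or rFGF4 library 1, 2 or 3 for SLC7A5, without PBS library 1, 2 or 4, or rFGF4 library 1 or 3 for SLC3A2 and with any 1 library left out for SLC1A4. The count of 4 was 1, 1, 2 and 1 without PBS replicate 1, 2, 3 and 4, and 1, 2 and 1 without rFGF4 replicate 1, 2 and 3.

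The other amino acid carriers did not pass with edgeR on all libraries. SLC7A8, the second light chain that pairs with SLC3A2 for neutral amino acids, stood at 17.3 to 18.8 CPM in the PBS libraries and 12.3 to 16.2 CPM in the rFGF4 libraries, without overlap, with a log2 fold change of −0.35 (SE 0.10, adjusted p = 0.0556 by edgeR). It did pass with DESeq2 (adjusted p = 0.00781), with limma on FPKM at both offsets and with edgeR without rFGF4 replicate 4. SLC1A5 had a log2 fold change of 0.31 (SE 0.21, adjusted p = 0.414 by edgeR), and its libraries were wide apart, at 311, 298, 303 and 192 CPM with PBS and 361, 359.8, 226 and 426 CPM with rFGF4. PBS replicate 4 was the low PBS library and rFGF4 replicate 3 the low rFGF4 library. SLC7A11, which takes up cystine for glutathione synthesis, had a log2 fold change of −0.19 (SE 0.18, adjusted p = 0.559 by edgeR), with 43.1 to 62.8 CPM in the PBS libraries and 39.3 to 61.8 CPM in the rFGF4 libraries. SLC38A2 had a log2 fold change of −0.03 (SE 0.10, adjusted p = 0.883 by edgeR), its paralogue SLC38A1 0.26 (SE 0.12, adjusted p = 0.233 by edgeR) and the glutamate transporter SLC1A3 −0.34 (SE 0.15, adjusted p = 0.198 by edgeR). SLC38A9, the lysosomal arginine sensor of the mTORC1 pathway, stood at 16.1 to 17.3 CPM in the PBS libraries and 14.4 to 15.7 CPM in the rFGF4 libraries, without overlap, with a log2 fold change of −0.16 (SE 0.07, adjusted p = 0.196 by edgeR). The summed level of the class was 989 to 1048 FPKM in the PBS libraries and 885 to 929 FPKM in the rFGF4 libraries, and the groups did not overlap in this sum, of which SLC7A5 is the largest part. SLC7A5 alone was 21.4% to 22.1% of the summed FPKM of all 167 genes in the PBS libraries and 18.6% to 20.0% in the rFGF4 libraries.

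Carriers that bring in vitamins, purines and osmolytes made up the largest group of rises. SLC43A3 (ENSG00000134802, chr11:57406954-57427580 on the minus strand), a carrier of purine nucleobases and the class member with the highest level, stood at 143, 129, 140.3 and 142 CPM with PBS and 196, 179.7, 216 and 239 CPM with rFGF4. All rFGF4 libraries were above all PBS libraries. It rose by 0.58 on the log2 scale (SE 0.09, adjusted p = 0.006 by edgeR), or 1.50-fold. The creatine transporter SLC6A8 stood at 72.6, 65.5, 74.7 and 73.4 CPM with PBS and 101, 94.3, 101 and 109 CPM with rFGF4, and the taurine transporter SLC6A6 at 39.0, 37.3, 41.7 and 37.4 CPM with PBS and 54.2, 53.1, 57.9 and 48.8 CPM with rFGF4. Neither had overlapping groups, and the log2 fold changes were 0.50 (SE 0.07, adjusted p = 0.00302 by edgeR) for SLC6A8 and 0.46 (SE 0.07, adjusted p = 0.00557 by edgeR) for SLC6A6. The calls for SLC43A3, SLC6A8 and SLC6A6 held under all 18 other settings run.

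Among the other rises of that class, SLC5A6, the sodium-coupled carrier of biotin and pantothenate, had the largest change. It stood at 17.5, 16.3, 19.2 and 23.6 CPM with PBS and 27.1, 26.7, 46.8 and 45.2 CPM with rFGF4. The rFGF4 libraries fell into a lower pair, replicates 1 and 2, and a higher pair, replicates 3 and 4, all above the PBS libraries. SLC5A6 rose by 0.93 on the log2 scale (SE 0.22, adjusted p = 0.0339 by edgeR), and the call ended without PBS library 1, 2 or 3, or rFGF4 library 3 or 4. Its span overlaps ATRAID on the opposite strand, which had a log2 fold change of −0.00428 (SE 0.10, adjusted p = 0.986 by edgeR). The folate carrier SLC19A1 stood at 17.9 to 21.1 CPM in the PBS libraries and 24.4 to 34.9 CPM in the rFGF4 libraries and rose by 0.59 on the log2 scale (SE 0.13, adjusted p = 0.0226 by edgeR), a call that ended without PBS library 1, 2 or 3, or rFGF4 library 1. It overlaps COL18A1 on the opposite strand, which had a log2 fold change of −0.03 (SE 0.09, adjusted p = 0.885 by edgeR). The thiamine carrier SLC19A2 had a log2 fold change of 0.18 (SE 0.25, adjusted p = 0.715 by edgeR) and the vitamin C carrier SLC23A2 0.61 (SE 0.40, adjusted p = 0.401 by edgeR). SLC23A2 stood at 14.7 CPM in PBS replicate 1 and at 60.8 to 84.8 CPM in the other 7 libraries.

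Of the nucleoside transporters of the SLC29 family, SLC29A1 rose and SLC29A3 fell. SLC29A1, the main equilibrative nucleoside transporter of the plasma membrane, stood at 74.4, 74.1, 71.2 and 85.6 CPM with PBS and 102, 91.7, 112 and 114 CPM with rFGF4, without overlap. It rose by 0.46 on the log2 scale (SE 0.09, adjusted p = 0.0152 by edgeR), a call that ended without PBS replicate 2. SLC29A3, its lysosomal relative, stood at 15.4, 23.5, 19.9 and 25.3 CPM with PBS and 11.6, 11.7, 14.8 and 9.79 CPM with rFGF4, again without overlap, and fell by 0.81 on the log2 scale (SE 0.18, adjusted p = 0.0253 by edgeR). That call ended without PBS library 2, 3 or 4, or rFGF4 library 1, 2 or 4. SLC29A2 had a log2 fold change of 0.26 (SE 0.11, adjusted p = 0.172 by edgeR). The count of 6 higher in the class was 3 without PBS replicate 2. The choline transporter-like genes SLC44A1, SLC44A2 and SLC44A3 had log2 fold changes of −0.28 (SE 0.13), −0.36 (SE 0.13) and −0.39 (SE 0.11), and none passed with edgeR. DESeq2 called SLC44A3 (adjusted p = 0.023), and SLC44A2 passed with edgeR without rFGF4 replicate 3. SLC44A3 alone of these had groups without overlap, at 5.17 to 6.52 CPM in the PBS libraries and 3.98 to 4.70 CPM in the rFGF4 libraries.

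Of the sugar carriers, the glucose transporter itself did not pass while SLC45A3 and SLC37A2 rose. SLC2A1, the glucose uniporter GLUT1, stood at 154, 169, 156 and 173 CPM with PBS and 158, 139, 159.6 and 169.6 CPM with rFGF4, with overlapping groups and a log2 fold change of −0.06 (SE 0.07, adjusted p = 0.705 by edgeR). SLC45A3 (ENSG00000158715, chr1:205657851-205680509 on the minus strand), of a family of proton-coupled sugar transporters, stood at 4.98, 3.11, 5.03 and 5.20 CPM with PBS and 9.25, 8.76, 10.5 and 10.1 CPM with rFGF4. The groups did not overlap, with PBS replicate 2 below the other PBS libraries. SLC45A3 rose by 1.08 on the log2 scale (SE 0.17, adjusted p = 0.00626 by edgeR), or 2.11-fold, from a low level (mean 1.57 FPKM). SLC37A2, a sugar phosphate exchanger of the endoplasmic reticulum, stood at 104, 109, 116 and 111 CPM with PBS and 141, 139, 133 and 138 CPM with rFGF4 and rose by 0.33 on the log2 scale (SE 0.05, adjusted p = 0.00747 by edgeR). Its paralogue SLC37A3 had groups without overlap (18.3 to 24.5 CPM in the PBS libraries and 26.0 to 35.9 CPM in the rFGF4 libraries) and a log2 fold change of 0.44 (SE 0.14, adjusted p = 0.0843 by edgeR), and it was called by DESeq2 (adjusted p = 0.0273). SLC50A1, a sugar uniporter of the SWEET family, had a log2 fold change of −0.15 (SE 0.15, adjusted p = 0.579 by edgeR).

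SLC16A1, the proton-coupled lactate and pyruvate transporter MCT1, stood at 105, 115, 114 and 124 CPM with PBS and 132, 139, 155 and 135 CPM with rFGF4. The lowest rFGF4 library was above the highest PBS library. It rose by 0.30 on the log2 scale (SE 0.07, adjusted p = 0.038 by edgeR), and the call ended without PBS library 1, 2 or 3, or rFGF4 library 1, 2 or 3. SLC16A5 had a log2 fold change of 0.12 (SE 0.11, adjusted p = 0.568 by edgeR) and SLC16A13 −0.15 (SE 0.11, adjusted p = 0.475 by edgeR).

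Of the pair of sodium-phosphate cotransporters, SLC20A1 rose and SLC20A2 did not pass. SLC20A1 (ENSG00000144136, chr2:112645939-112663825 on the plus strand) stood at 156, 146, 152 and 162 CPM with PBS and 202, 216, 209.6 and 234 CPM with rFGF4. The groups were well apart, and the log2 fold change was 0.48 (SE 0.06, adjusted p = 0.00281 by edgeR), or 1.40-fold. SLC20A2 stood at 52.7 to 57.6 CPM in the PBS libraries and 52.9 to 56.8 CPM in the rFGF4 libraries, with overlapping groups. The call for SLC20A1 held under all 18 settings.

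In the class of sodium, proton, bicarbonate and chloride transporters, SLC4A7 and SLC12A8 rose. The sodium bicarbonate cotransporter SLC4A7 stood at 14.0, 15.4, 15.9 and 13.8 CPM with PBS and 25.1, 27.7, 21.1 and 17.0 CPM with rFGF4. The rFGF4 values were spread widely, and replicate 4 was close to the PBS libraries. SLC4A7 rose by 0.62 on the log2 scale (SE 0.15, adjusted p = 0.0346 by edgeR), a call that ended without PBS library 1, 2, 3 or 4, or rFGF4 library 1, 2 or 3. SLC12A8, of the cation-chloride cotransporter family, stood at 15.6, 14.2, 15.4 and 15.3 CPM with PBS and 21.5, 20.2, 18.8 and 19.9 CPM with rFGF4 and rose by 0.41 on the log2 scale (SE 0.08, adjusted p = 0.0126 by edgeR), which did not pass without PBS replicate 2. The sodium-potassium-chloride cotransporter SLC12A2 had a log2 fold change of −0.05 (SE 0.15, adjusted p = 0.861 by edgeR). The chloride-bicarbonate exchanger SLC4A2 had groups without overlap and a log2 fold change of −0.15 (SE 0.05, adjusted p = 0.128 by edgeR).

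Zinc importers of the SLC39 family gave the rises among the metal carriers. SLC39A13, a ZIP family zinc transporter of intracellular membranes, stood at 10.8, 10.8, 9.20 and 8.80 CPM with PBS and 16.0, 26.2, 34.0 and 13.4 CPM with rFGF4. All rFGF4 libraries were above the PBS libraries, but replicate 3 was 34.0 CPM and replicate 4 13.4 CPM. It rose by 1.18 on the log2 scale (SE 0.28, adjusted p = 0.0336 by edgeR), the largest log2 fold change of the 27, and the call ended without PBS library 1, 2, 3 or 4, or rFGF4 library 2 or 3. SLC39A10, a zinc importer of the plasma membrane, stood at 27.2, 25.9, 25.0 and 26.9 CPM with PBS and 48.3, 48.2, 40.1 and 31.9 CPM with rFGF4 and rose by 0.68 on the log2 scale (SE 0.13, adjusted p = 0.0143 by edgeR), a call that ended without PBS replicate 2. SLC39A1 had a log2 fold change of 0.72 (SE 0.30, adjusted p = 0.172 by edgeR) with 44.1 to 68.1 CPM in the PBS libraries and 54.7 to 147 CPM in the rFGF4 libraries, SLC39A4 0.38 (SE 0.16, adjusted p = 0.175 by edgeR), SLC39A6 0.11 (SE 0.11, adjusted p = 0.596 by edgeR) and SLC39A7 −0.06 (SE 0.05, adjusted p = 0.562 by edgeR). None of these 4 passed with edgeR.

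SLC49A4, a protein of lysosomal membranes placed in the metal class, was the member of that class that fell. It stood at 46.6, 48.8, 44.6 and 51.2 CPM with PBS and 36.6, 37.9, 41.6 and 40.4 CPM with rFGF4, without overlap, and fell by 0.29 on the log2 scale (SE 0.07, adjusted p = 0.0341 by edgeR). The call ended without PBS library 1, 2 or 4, or rFGF4 library 1, 2 or 3. SLC11A2, the proton-coupled iron importer DMT1, had groups without overlap and a log2 fold change of −0.27 (SE 0.09, adjusted p = 0.0941 by edgeR). SLC31A1, the plasma membrane copper importer, had a log2 fold change of −0.14 (SE 0.07, adjusted p = 0.268 by edgeR), and its relative SLC31A2 −0.55 (SE 0.17, adjusted p = 0.0754 by edgeR), with 8.64 to 12.8 CPM in the PBS libraries and 5.61 to 7.79 CPM in the rFGF4 libraries. The Golgi zinc transporter SLC30A5 had groups without overlap and a log2 fold change of −0.22 (SE 0.07, adjusted p = 0.0982 by edgeR). DESeq2 called SLC11A2, SLC31A2 and SLC30A5 lower (adjusted p = 0.0399, 0.0202 and 0.0484).

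The fall of largest size among the called carriers was in SLC47A2 (ENSG00000180638, chr17:19678288-19718837 on the minus strand), an exchanger that exports organic cations against protons. It stood at 19.8, 20.2, 19.5 and 19.0 CPM with PBS and 9.80, 8.49, 8.01 and 9.63 CPM with rFGF4. The groups were far apart and each was narrow. SLC47A2 fell by 1.13 on the log2 scale (SE 0.09, adjusted p = 0.000391 by edgeR), to 0.457 of the PBS level, at a mean of 1.77 FPKM. In the other direction, SLCO4A1 (ENSG00000101187, chr20:62642503-62672293 on the plus strand), an organic anion transporter that carries thyroid hormones, stood at 5.71, 5.30, 5.08 and 5.95 CPM with PBS and 10.1, 9.71, 10.2 and 12.8 CPM with rFGF4. rFGF4 replicate 4 was above the other rFGF4 libraries and no PBS library reached them. SLCO4A1 rose by 0.95 on the log2 scale (SE 0.12, adjusted p = 0.00204 by edgeR), or 1.94-fold. Both calls held under all 18 settings. The 13 other members of the class did not pass. SLC27A4, a fatty acid transport protein and the class member with the highest level, had a log2 fold change of −0.02 (SE 0.08, adjusted p = 0.914 by edgeR), and SLC27A2 had a log2 fold change of −0.31 (SE 0.11, adjusted p = 0.108 by edgeR).

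The mitochondrial carriers, the largest class, had 2 of 37 members past the threshold with edgeR, a smaller share than the 10.0% of all genes tested, and a median log2 fold change of 0.02. SLC25A15, which exchanges ornithine for citrulline, stood at 36.0, 39.5, 38.0 and 39.5 CPM with PBS and 49.8, 57.0, 50.8 and 48.8 CPM with rFGF4, without overlap. It rose by 0.43 on the log2 scale (SE 0.07, adjusted p = 0.00649 by edgeR), and the call held under all 18 settings. SLC25A40, linked to mitochondrial glutathione import, stood at 31.3, 30.6, 34.5 and 28.1 CPM with PBS and 24.3, 27.2, 23.2 and 21.2 CPM with rFGF4, and fell by 0.38 on the log2 scale (SE 0.10, adjusted p = 0.0482 by edgeR). The call ended without PBS library 1, 2, 3 or 4, or rFGF4 library 1, 3 or 4. Its span overlaps DBF4 on the opposite strand, which had a log2 fold change of 0.05 (SE 0.15, adjusted p = 0.875 by edgeR). SLC25A5 had a log2 fold change of −0.13 (SE 0.06, adjusted p = 0.228 by edgeR) with 1305 to 1496 CPM in the PBS libraries and 1182 to 1360.0 CPM in the rFGF4 libraries, and the phosphate carrier SLC25A3 −0.17 (SE 0.07, adjusted p = 0.192 by edgeR). The iron importer SLC25A37 had a log2 fold change of 0.40 (SE 0.13, adjusted p = 0.102 by edgeR) and was called by DESeq2 (adjusted p = 0.0477), its paralogue SLC25A28 0.25 (SE 0.19, adjusted p = 0.47 by edgeR) and the citrate carrier SLC25A1 0.14 (SE 0.20, adjusted p = 0.715 by edgeR).

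In the SLC35 family, SLC35F2 rose while SLC35D1 and SLC35E2A fell. SLC35F2 stood at 49.1, 52.3, 60.1 and 57.2 CPM with PBS and 71.8, 67.4, 76.6 and 70.1 CPM with rFGF4 and rose by 0.39 on the log2 scale (SE 0.08, adjusted p = 0.0172 by edgeR). That call ended without PBS library 2, or rFGF4 library 1 or 3. SLC35D1, which carries UDP-glucuronic acid and UDP-N-acetylgalactosamine into the endoplasmic reticulum, stood at 24.0, 22.5, 24.6 and 22.3 CPM with PBS and 16.2, 18.2, 18.2 and 15.1 CPM with rFGF4 and fell by 0.46 on the log2 scale (SE 0.09, adjusted p = 0.0136 by edgeR). SLC35E2A stood at 24.2, 24.0, 24.8 and 24.8 CPM with PBS and 18.5, 18.6, 19.3 and 19.7 CPM with rFGF4 and fell by 0.36 on the log2 scale (SE 0.06, adjusted p = 0.00963 by edgeR). It has a near-identical neighbour, SLC35E2B, which stood at 12.4 to 14.2 CPM in the PBS libraries and 9.31 to 13.3 CPM in the rFGF4 libraries with a log2 fold change of −0.37 (SE 0.13, adjusted p = 0.125 by edgeR), and it passed without rFGF4 replicate 2. The division of counts between these 2 genes is uncertain. SLC35A4, the family member with the highest level, had a log2 fold change of −0.01 (SE 0.09, adjusted p = 0.961 by edgeR). SLC35A1 and SLC35A2, which carry CMP-sialic acid and UDP-galactose into the Golgi, had a log2 fold change of −0.22 (SE 0.10, adjusted p = 0.22 by edgeR) and 0.59 (SE 0.32, adjusted p = 0.299 by edgeR).

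Some of the 167 symbols belong to genes named after a carrier that are not carriers themselves. These are the scaffold genes SLC9A3R1 and SLC9A3R2, the transcription regulator SLC2A4RG, SLC4A1AP and SLC7A6OS. None of these 5 passed with edgeR or DESeq2, 0 had an unadjusted p under 0.05, and all 27 calls were among the 162 remaining genes. SLC9A3R1, at a mean of 25.0 FPKM, had a log2 fold change of 0.43 (SE 0.46, adjusted p = 0.625 by edgeR), and rFGF4 replicate 4 stood at 169 CPM with the other rFGF4 libraries at 36.4 to 71.3 CPM. Without that library its log2 fold change was −0.21. Of the 167 genes, 39 have a span that overlaps another tested gene in the table. Among these 2 rose and 3 fell, and among the 128 with no such overlap 15 rose and 7 fell. Of all genes tested 5.49% rose and 4.54% fell, and the difference between these sets of carriers was not tested. A pseudogene that carries the gene's name is listed for 19 of the 167, so counts of these may be shared with copies. Among them are SLC25A5, the gene with the highest level, and the called SLC7A5, SLC20A1, SLC6A6, SLC25A15 and SLC16A1.

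The libraries of a group differed widely for some carriers that did not pass. In 23 of the 167 genes (13.8%) the highest library of a group was at least 2-fold above the lowest of the same group, and 13.4% of all genes tested had such a spread or a count of 0. Of those 23, SLC39A13 alone passed the threshold. SLC25A36, a mitochondrial pyrimidine nucleotide carrier, stood at 120.1, 32.1, 123 and 102 CPM with PBS and 113, 129, 115 and 21.8 CPM with rFGF4. PBS replicate 2 and rFGF4 replicate 4 were low and the other 6 libraries lay between 102 and 129 CPM. SLC39A9, a zinc transporter, had the log2 fold change of largest size of all 167, −1.61 (SE 0.57, adjusted p = 0.122 by edgeR), and stood at 73.0, 17.6, 75.4 and 15.4 CPM with PBS and 17.4, 16.6, 17.8 and 7.71 CPM with rFGF4. PBS replicates 1 and 3 were high, PBS replicates 2 and 4 lay with the rFGF4 libraries, and SLC39A9 overlaps ERH on the opposite strand. SLC7A6, a light chain for cationic amino acid exchange, had a log2 fold change of −0.76 (SE 0.46, adjusted p = 0.353 by edgeR) and stood at 101, 104, 32.8 and 26.5 CPM with PBS and 37.9, 49.5, 41.8 and 26.7 CPM with rFGF4, where PBS replicates 1 and 2 were high. The mitochondrial glutamate carrier SLC25A22 had a log2 fold change of 0.80 (SE 0.49, adjusted p = 0.36 by edgeR) with 22.4 to 78.8 CPM in the PBS libraries and 37.8 to 118 CPM in the rFGF4 libraries, and SLC25A43 stood at 83.4 CPM in rFGF4 replicate 3 and 14.4 to 28.3 CPM elsewhere.

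**Figure D4:**
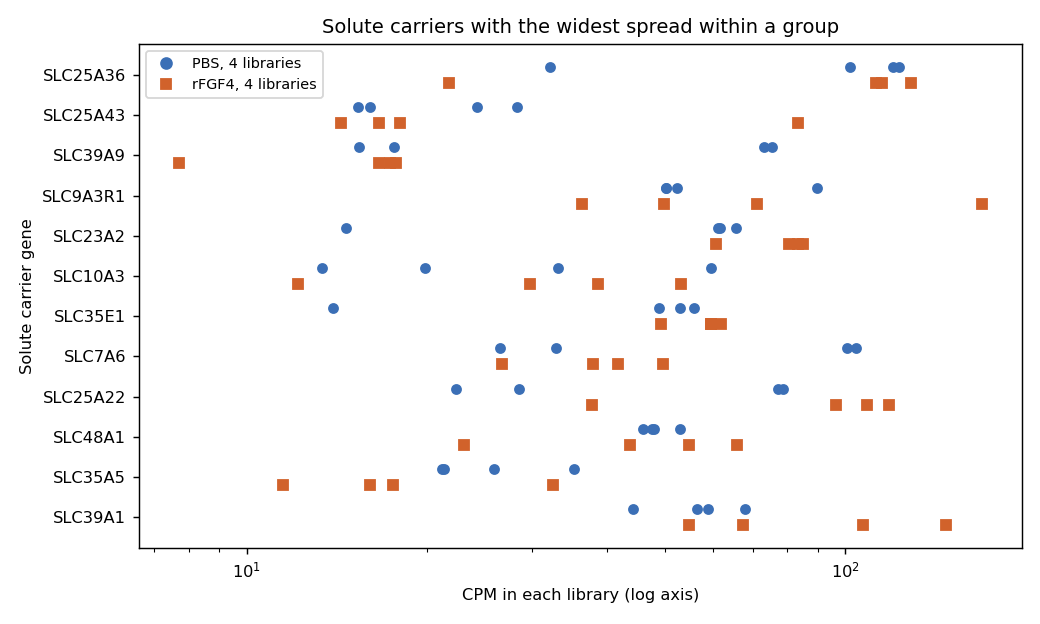
CPM (log axis) of the 12 genes with the widest spread within a group, with 4 PBS libraries as circles and 4 rFGF4 libraries as squares. In SLC39A9 the PBS libraries form a pair above 70 CPM and a pair below 20 CPM, and in SLC25A36 single libraries of each group lie far below the rest.

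Genes that work beside the carriers were read from 7 lists. Of the sodium-potassium pump, whose sodium gradient drives the symporters, 5 of 11 listed subunits were tested, and ATP1B1 fell from 122 ± 4.49 CPM with PBS to 94.9 ± 2.08 CPM with rFGF4, a log2 fold change of −0.36 (SE 0.05, adjusted p = 0.00394 by edgeR). Of 18 tested chaperones and trafficking regulators 1 rose and 2 fell with edgeR, and 4 were higher and 2 lower with DESeq2. Of all 11536 genes tested, edgeR called 1157 (10.0%) and DESeq2 1828. TXNIP, an arrestin that promotes removal of glucose transporters from the surface, stood at 20.4, 23.2, 20.5 and 21.1 CPM with PBS and 11.6, 12.6, 11.0 and 13.8 CPM with rFGF4, and it fell by 0.80 on the log2 scale (SE 0.10, adjusted p = 0.00189 by edgeR). Its relative ARRDC3 fell by 0.47 on the log2 scale (SE 0.06, adjusted p = 0.00335 by edgeR). The ubiquitin ligase NEDD4L rose by 0.22 on the log2 scale (SE 0.06, adjusted p = 0.0478 by edgeR), a call that ended without PBS library 1, 2 or 4, or rFGF4 library 1, 2, 3 or 4 and was lost under 15 of the 18 settings in all, among them median-of-ratios and upper-quartile scaling. The median log2 fold change of the list was 0.05, against 0.00153 for all genes tested.

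Of 9 tested ABC transporters, which export drugs, conjugates and lipids with ATP, the conjugate exporter ABCC3 rose by 0.44 on the log2 scale (SE 0.06, adjusted p = 0.00301 by edgeR) and ABCC10 fell by 0.34 on the log2 scale (SE 0.06, adjusted p = 0.0126 by edgeR). Of all genes tested, edgeR called 10.0%. With DESeq2, 1 of the 9 was higher and 3 were lower. At an unadjusted p under 0.05 by edgeR, 1 was higher and 4 were lower. At that level 1563 of all 11536 genes tested were higher and 1333 lower, the background for each such count below. Among 18 tested genes of amino acid sensing 0 rose and 2 fell, a share near the 10.0% of all genes tested, with 3 higher at an unadjusted p under 0.05 and 0 rising with DESeq2. SESN3, a stress-induced regulator of the mTORC1 pathway, went from 25.1 ± 2.51 CPM with PBS to 13.2 ± 2.07 CPM with rFGF4 and fell by 0.93 on the log2 scale (SE 0.13, adjusted p = 0.00357 by edgeR). RRAGC, a Rag GTPase that recruits mTORC1 to lysosomes, fell by 0.53 on the log2 scale (SE 0.11, adjusted p = 0.0233 by edgeR). That call ended without PBS library 1, or rFGF4 library 1 or 3, and with the replicate number as a block (adjusted p = 0.0518 by edgeR). With edgeR, 0 of 4 tested metallothionein list genes, 0 of 9 genes of iron uptake and storage and 0 of 1 aquaporin passed. At an unadjusted p under 0.05 those counts were 1, 0 and 1, and with DESeq2 all were 0.

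Of the 27 called carriers, 12 passed under all 18 other settings, as the grid of calls by setting shows. They were SLC45A3, SLCO4A1, SLC43A3, SLC6A8, SLC20A1, SLC6A6, SLC25A15 and SLC37A2 among those that rose, and SLC35E2A, SLC35D1, SLC6A9 and SLC47A2 among those that fell. The same 12 were those whose call held with each library left out in turn. For 10 of the 27 the call was lost under at least 5 settings, and these included SLC7A5, SLC3A2, SLC1A4, SLC16A1 and SLC39A13. With limma on log2(FPKM + 1) and on log2(FPKM + 0.1), SLC39A13, SLC4A7 and SLC25A40 did not pass. With no filter on low genes, those 3 and SLC7A5, SLC1A4, SLC3A2, SLC16A1, SLC49A4 and SLC5A6 did not, and with genes tested from 0.1 FPKM or by filterByExpr SLC7A5, SLC1A4, SLC49A4 and SLC25A40 did not. With the counts divided by 4, run because they pile up at multiples of 4, 26 of the 27 calls were kept and SLC7A5 was lost (adjusted p = 0.0514 by edgeR). With the replicate number as a block, SLC7A5, SLC1A4, SLC16A1, SLC29A3, SLC39A13, SLC4A7, SLC49A4 and SLC25A40 did not pass (adjusted p = 0.0528 to 0.0672 by edgeR).

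**Figure D5:**
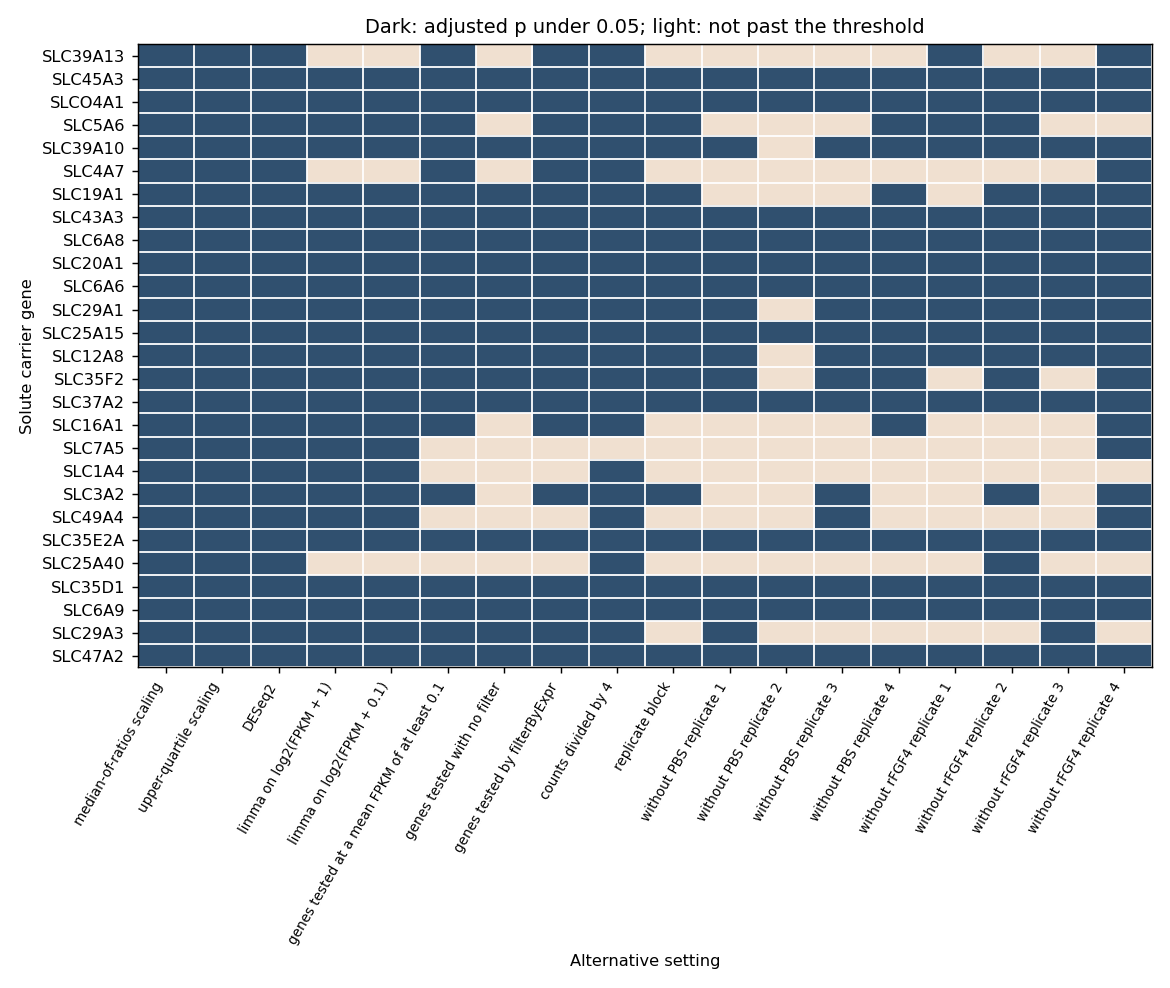
Calls of the 27 solute carriers (rows) under 18 alternative settings (columns), dark where the adjusted p was under 0.05 and light where it was not. In 12 genes every cell is dark and the columns that leave out 1 PBS library hold many of the light cells.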

How the data were processed

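Total RNA from 8 libraries, 4 labelled PBS and 4 labelled rFGF4, was sequenced, and 1 table holds raw counts and FPKM per gene and library. The authors used HISAT2 2.0 and StringTie 1.3.0, per the submitters' processing notes, which give no role for either. No source used here names the genome build or annotation. The deposited counts are whole numbers that pile up at 4, 8 and 12, so they may be rounded estimated counts. The deposited FPKM values carry 0.0001 in place of 0, which was read as 0. The table holds human genes under mouse labels. Of its 58825 genes, 521 (chromosome Y, XIST and TSIX) were left out, and SLC25A6, which also lies on that chromosome, was counted among the carriers but its values are not given. Genes at a mean FPKM of at least 1 were tested on the counts as deposited with edgeR 4.0.16 (R 4.3.3) by the quasi-likelihood test with TMM scaling, group as the only term, two-sided, and Benjamini-Hochberg adjustment over all 11536 genes at 0.05. SE is the log2 fold change over the root of F. The script was tested on simulated data with 200 changed genes. It recovered 2% of 1.25-fold, 26% of 1.5-fold, 60% of 2-fold and 98% of 4-fold changes, with 3 false calls. A gene that did not pass may therefore still have changed by a small amount. DESeq2 1.42.0, limma 3.58.1, other scalings and filters, a replicate block and leaving out each library were alternatives. The carriers, substrate classes and lists were chosen with earlier results of these data known. Named genes were those past the threshold without overlap between groups, the highest of each class, a fixed set, the 2 on each side of the level and up to 4 per list. Some genes the rule names are not reported here. No sequence is shown. Library totals were 62044121 to 73680756 counts, and the lowest count of a carrier in a library was 174.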

Additional observations from a re-analysis of the deposited data

Results flagged for a closer look

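In some groups of 4 libraries 1 library stood far from the other 3, with a gap to the nearest of them past Dixon's critical value. This was seen in 21 of the 334 groups (6.29%) of all 167 carriers, where chance flags about 1 in 20, and 6 of those 21 were in rFGF4 replicate 4. Among the carriers named here it was seen in 15 of the 152 groups. Because 38 of the named carriers were chosen after their values were seen, that share cannot be set beside the 1 in 20. Of called carriers, SLC45A3 stood at 3.11 CPM in PBS replicate 2, with the other PBS libraries at 4.98 to 5.20 CPM. SLCO4A1 stood at 12.8 CPM in rFGF4 replicate 4, with the others at 9.71 to 10.2 CPM. Neither call was lost with that library left out.

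The other carriers with such a library did not pass with edgeR on all libraries, while DESeq2 called SLC31A2 and SLC44A3, and SLC35E2B passed without its outlying library, rFGF4 replicate 2 (adjusted p = 0.0154 by edgeR). In PBS replicate 1, SLC23A2 stood at 14.7 CPM against 61.4 to 65.7 CPM, and SLC16A13 at 8.51 CPM against 10.1 to 10.3 CPM. In PBS replicate 2, SLC25A28 stood at 29.8 CPM against 52.6 to 55.7 CPM, and SLC38A9 at 16.1 CPM against 17.2 to 17.3 CPM. PBS replicate 4 was high for SLC9A3R1 (89.6 CPM against 50.1 to 52.3 CPM), SLC44A3 (6.52 CPM against 5.17 to 5.37 CPM) and SLC31A2 (12.8 CPM against 8.64 to 8.79 CPM), and low for the glutamine exchanger SLC1A5 (192 CPM against 298 to 311 CPM). Among the rFGF4 libraries, SLC35E2B stood at 13.3 CPM in replicate 2 against 9.31 to 9.49 CPM, and SLC25A43 at 83.4 CPM in replicate 3 against 14.4 to 18.0 CPM. rFGF4 replicate 4 was low for SLC25A36 (21.8 CPM against 113 to 129 CPM) and SLC39A9 (7.71 CPM against 16.6 to 17.8 CPM), and high for SLC4A2 (71.5 CPM against 66.7 to 67.1 CPM).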

How the results depend on the processing

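The count of 17 carriers that rose was 8 among those at a mean FPKM of at least 5, a subset of 84, and 8 to 16 with 1 library left out. The count of 10 that fell was 16 with DESeq2, 6 with genes tested from 0.1 FPKM, 5 with no filter, 6 by filterByExpr and 5 at 5 FPKM or more, and 4 to 9 with 1 library left out. The count of 4 amino acid carriers that fell was 2 from 0.1 FPKM, 1 with no filter, 2 by filterByExpr and 1 to 4 with 1 library left out. Where it was 4, without rFGF4 replicate 4, SLC7A8 was called and SLC1A4 was not. The count of 6 vitamin, choline, nucleoside and osmolyte carriers that rose was 3 to 6 with 1 library left out. All genes called went from 1157 to 1828 with DESeq2 and to 601 without PBS replicate 2. The cause of these shifts was not tested. Same-numbered libraries did not all deviate together (correlations 0.1234, 0.05776, −0.02249 and 0.2836 for replicates 1 to 4), and not every library correlated best with its own number. Between PBS and rFGF4 libraries of different number the correlations ran from −0.2024 to 0.08471, so those of replicates 1 and 4 lay above all of these. With the replicate number as a block, 15 carriers rose and 6 fell, 2 of them amino acid carriers. Of those 21, 19 were among the 27 called without it, and the rest of the 27 did not pass with it. Without the 5 genes named after a carrier, or without carriers that overlap another tested gene (both chosen after seeing the data), 17 and 15 rose and 10 and 7 fell. No called carrier changed sign under any setting run. Named carriers not past the threshold that did, with their range with 1 library left out, were SLC12A2 (−0.18 to 0.046, above 0 without PBS replicate 3 or rFGF4 replicate 4), SLC27A4 (−0.066 to 0.045, above 0 without rFGF4 replicate 2), SLC38A2 (−0.13 to 0.032, above 0 without rFGF4 replicate 4), SLC9A3R1 (−0.21 to 0.68, below 0 without rFGF4 replicate 4) and SLC35A4 (−0.071 to 0.055, above 0 without PBS replicate 3 or rFGF4 replicate 2 or 4, and 1.45e-05 by filterByExpr). No carrier had fewer than 174 counts in a library. In simulated data most changes of 1.5-fold or 1.25-fold were still missed.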
